A study of Cicer arietinum with 24 samples.

Results

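The S4/S5 transition of chickpea seed development was compared in the cultivar JGK 3, and genes apart at this transition were then followed to S6 and S7. A gene entered the comparison if its entry in the expression tables carried a gene identifier and its level reached at least 1 FPKM at S4 or at S5. FPKM counts RNA fragments relative to transcript length and to the fragments mapped in the library, so that levels of different genes can be set side by side per length. Of 27966 entries with a gene identifier, 17195 (61.5%) met this condition. They are called genes here, although 1574 of them join several identifiers and 2365 have an identifier that occurs on more than 1 entry. A gene was called higher or lower at S5 where its difference in log2(FPKM + 1) was at least 1, which is 2-fold.

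The study sampled leaf and whole seeds at 7 stages (S1 to S7) from mature field-grown JGK 3 plants, with 3 samples in each of 8 groups (24 samples). All groups were of 1 cultivar, and no treatment or mutant was part of this design. The stages run from embryogenesis, S1 to S3 being early-, mid- and late-embryogenesis, to maturation, where S5 is mid-maturation and S7 late-maturation. S4 and S6 were used by their number alone. A single column held the 3 samples of each group together, so no spread between samples, no test and no p-value could be given, and every difference below describes pooled columns. The number of mapped reads behind each column is unknown.

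In legume seeds, embryogenesis is the phase of cell division and pattern formation. In the filling phase that follows, cotyledon cells stop dividing, expand and accumulate storage proteins, starch and lipids, and transcripts of a few storage protein families become very abundant. Later, the seed acquires desiccation tolerance, for which late embryogenesis abundant proteins and other protective proteins are known, and then dries. Whole seeds were sampled, and the study's text states that in chickpea the endosperm has been resorbed by S5, so the tissue makeup itself differs across the S4/S5 step or before it. For every gene, a change in the share of a tissue, fewer cells of a type and less RNA per cell cannot be told apart. No gene name or sequence could be joined to the identifiers, so storage protein genes could not be used to check where filling begins, and the transition is called by its stages.

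Some values of exactly 0 stood between high values at the neighbouring stages. At S4, 13 entries were listed at 0 with at least 1 FPKM at both S3 and S5, and for 8 of them both neighbours were at least 100 FPKM. At S5, 19 entries were listed at 0 with at least 1 FPKM at both S4 and S6, and for 5 of them both neighbours were at least 100 FPKM. With both neighbours at least 10 FPKM, there were 9 such entries at S4 and 12 at S5, in contrast to 1 at S2, 1 at S3 and 5 at S6. Their identifiers were often close in number, such as Ca_24988, Ca_24989, Ca_24991 and Ca_24994 at S4 and Ca_15690 to Ca_15694 at S5. A 0 of this kind may be a failed estimate, so such genes are said to be listed at 0 and no fold is given for them.

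A total of 3307 genes (19.2% of those compared) were at least 2-fold apart between S4 and S5. Of these, 1497 genes (8.71%) were higher and 1810 genes (10.5%) were lower at S5, so that 45.3% of genes apart were higher. The middle of the distribution did not shift, with a median difference of -0.01 and quartiles of -0.48 and 0.42 in log2(FPKM + 1). This balance depended on the scale of the columns. The summed FPKM differed between S4 (953578) and S5 (1292185), and with the columns set to the same sum 898 genes were higher and 3442 lower, while the median difference moved to -0.41. With the same upper quartile the counts were 1244 and 2292, with a median difference of -0.14. With a median ratio scaling they were 1556 and 1753.

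**Figure D1:**
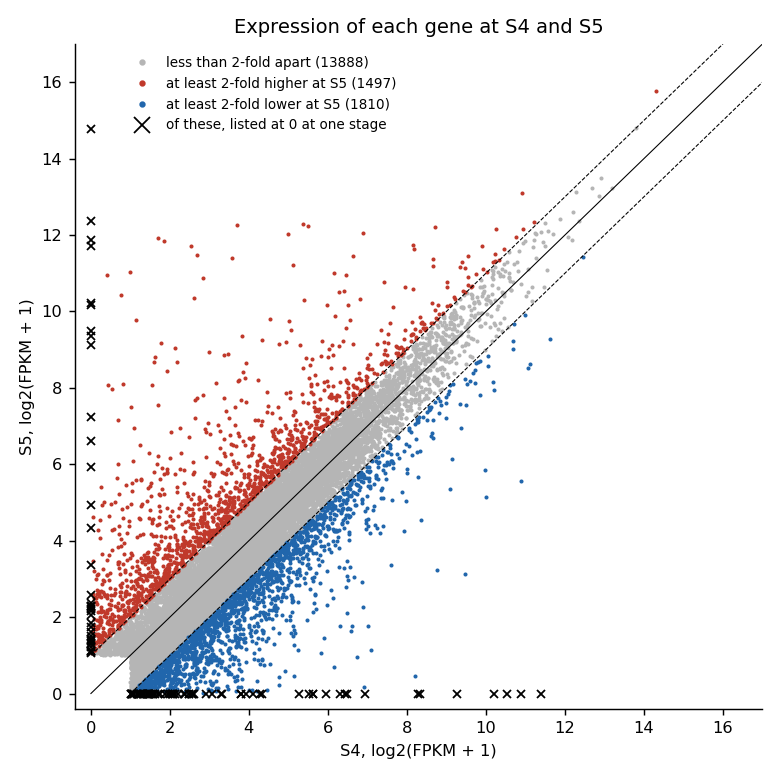
Levels of the genes compared at S4 (x axis) and S5 (y axis), both in log2(FPKM + 1). Each point is a gene, the solid line marks equal levels, the dashed lines mark 2-fold and crosses are genes at least 2-fold apart that were listed at 0 at one of both stages. The 1497 genes in red reach farther from the diagonal than the 1810 genes in blue once the crosses are set aside.

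Genes higher at S5 had larger changes than genes lower at S5 when the most extreme were counted. Their median difference was 1.48, against -1.41 for the lower genes. Among the higher genes, 106 (7.08%) were at least 16-fold higher and 39 at least 64-fold. Among the lower genes, 46 (2.54%) were at least 16-fold lower and 14 at least 64-fold. S4 was listed at 0 for 37 higher genes, and S5 was listed at 0 for 70 lower genes. With both stages above 0, 92 genes were at least 16-fold higher and 27 at least 16-fold lower.

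The direction of change also varied with the level of the gene. Among 164 genes whose mean over S4 and S5 reached 1000 FPKM, 52 (31.7%) were higher and 9 (5.49%) lower. Among 1553 genes between 100 and 1000 FPKM, 15.5% were higher and 7.41% lower. Between 1 and 10 FPKM the order was the other way round, with 7.95% of 6415 genes higher and 14.1% lower. Thus, the most abundant genes were more often higher at S5 and the weakly expressed genes more often lower, and this pattern is a description of counts with no test.

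The largest differences above 0 at both stages belonged to genes that were close to silent through embryogenesis. Ca_25605 was listed at 0 FPKM at S1, S2 and S3, stood at 0.329 at S4, reached 1999.7 at S5 and 5808 at S6, and was at 1527 at S7. Its difference between S4 and S5 was 10.56 in log2(FPKM + 1), the largest of all genes above 0 at both stages. Ca_07811 was under 0.04 FPKM at S1 to S3, at 0.997 at S4, 2096 at S5, 1859 at S6 and 3379 at S7. Both genes were therefore present at S4 at a trace of the level they had at the 3 later stages.

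Ca_12606 had the highest level at S6 and S7 of the 12 largest increases. It was between 0.197 and 0.465 FPKM at S1 to S3, at 5.39 at S4, 2843 at S5, 15648 at S6 and 11374 at S7. Ca_04570 was under 0.5 FPKM at S1 to S3, then stood at 12 FPKM at S4, 4944 at S5, 3171 at S6 and 2942 at S7. Ca_03355 was at 10.8 FPKM at S4, 2683 at S5, 2405 at S6 and 2291 at S7, which is near its S5 level throughout. For Ca_09723 the levels were 1.19, 879, 988 and 1158 FPKM at the same stages. These genes formed a plateau from S5 on, or a further increase.

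Other large increases were transient to a varying degree. Ca_02720 had 4.83 FPKM at S4, 3337 at S5, and only 15.0 at S6 and 16.3 at S7. The gene with the next identifier, Ca_02721, had 5.12 FPKM at S4, 1300 at S5, 588 at S6 and 172 at S7. Ca_00443 was at 2.26 FPKM at S4, 3905 at S5, 97.7 at S6 and 204 at S7. By the 2-fold limit all 3 remained above S4 at S6 and S7, but their highest column was S5.

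Ca_01746 was the 1 gene among the 12 largest increases that was also abundant in leaf, with 557 FPKM. In seeds it was at 0.687 FPKM at S4, 1380 at S5, 231 at S6 and 1.03 at S7. It lies in the study's list of genes within quantitative trait loci (QTLs) for seed size and weight. Ca_12229 was the 1 member of the 12 with a level above 1 FPKM throughout S1 to S3, with 12.1 FPKM at S1, 2.32 at S3, 2.61 at S4, 3680 at S5, 1319 at S6 and 1595 at S7. Ca_02067 completed the 12, with 6.14 FPKM at S4, 1872 at S5, 929 at S6 and 1015 at S7.

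A total of 9 genes went from above 0 and under 10 FPKM at S4 to at least 1000 FPKM at S5. At S3, 8 of these 9 were under 1 FPKM. At S6, 7 of the 9 were still at least 100 FPKM, and 7 were at S7. The number of genes with at least 1000 FPKM was 121 at S4 and 183 at S5. Of the 183, 74 were at least 2-fold higher at S5. The 183 were picked by their S5 level, which favours genes higher at S5, so this count is not read as a result. When the S4 and S5 levels were averaged and 1000 FPKM was required of the average, 52 of 164 genes (31.7%) were higher.

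**Figure D2:**
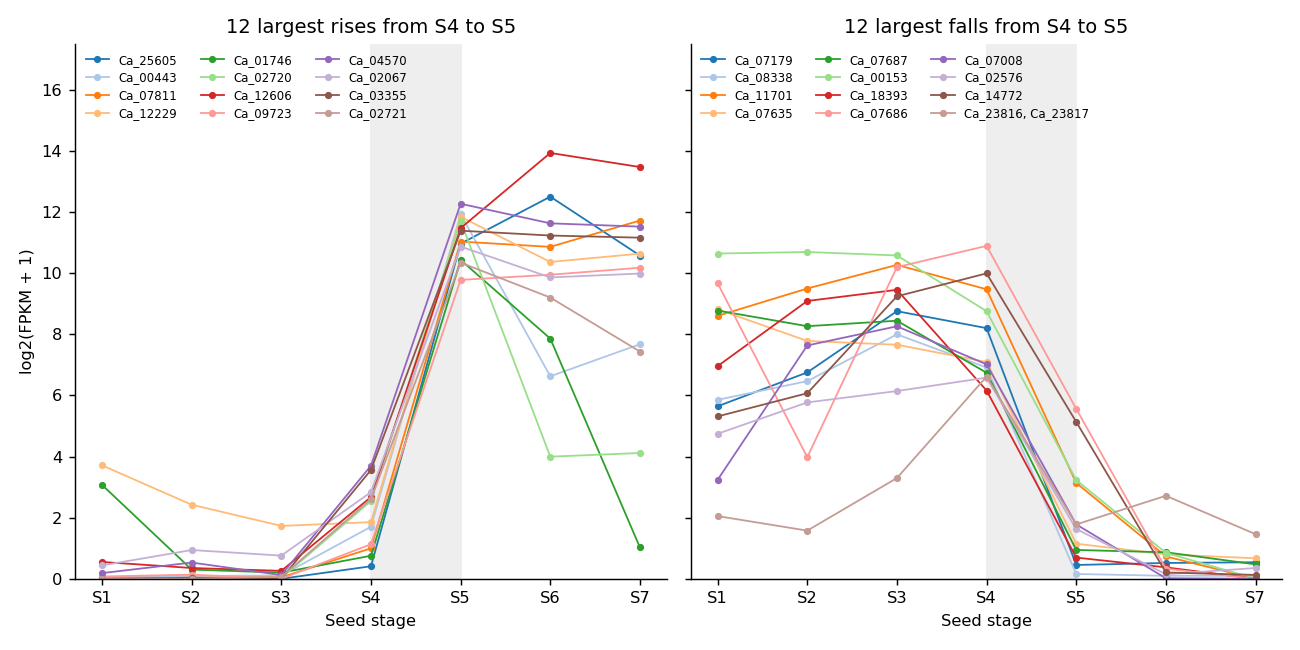
Levels of the 12 genes with the largest increases (left) and the 12 with the largest decreases (right) from S4 to S5, among genes above 0 at both stages. The x axis gives the seed stage, the y axis log2(FPKM + 1), each line is a gene and the grey band marks S4 to S5. The increases start near 0 and mostly stay high, as for Ca_12606 at 15648 FPKM at S6, whereas the decreases stay low, as for Ca_07179 at 0.432 FPKM at S6.

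The largest decreases were mostly of genes expressed across all of embryogenesis. Ca_07179 increased from 49.1 FPKM at S1 to 431 at S3, stood at 293 at S4 and was at 0.368 FPKM at S5, 0.432 at S6 and 0.455 at S7. Its difference of -7.75 was the largest decrease above 0 at both stages. Ca_08338 had a similar course, with 255 FPKM at S3, 120 at S4 and 0.116 at S5, and stayed at 0.07 FPKM afterwards. Both were essentially limited to the stages before S5, with a leaf level of 1.38 and 0.617 FPKM.

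Ca_00153 was the most abundant of the 12 during embryogenesis. It had 1598 FPKM at S1, 1655 at S2, 1530 at S3, 431 at S4, 8.38 at S5 and 0.802 at S6, and was listed at 0 at S7. Ca_11701 was highest at S3 (1234 FPKM) and stood at 710 at S4, 7.79 at S5 and 0.661 at S6. Ca_18393 had already dropped before, from 701 FPKM at S3 to 70.5 at S4, and was at 0.618 at S5. For these genes S5 continued a decrease that began between S3 and S4.

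A second kind of decrease had its highest level at S4 itself. Ca_14772 was at 66.3 FPKM at S2, 605 at S3, 1018 at S4, 34.1 at S5 and 0.154 at S6. Ca_07686 was at 14.8 FPKM at S2, 1174 at S3, 1901 at S4, 46.2 at S5 and 0.257 at S6. The entry joining Ca_23816 and Ca_23817 was under 9 FPKM at S1 to S3, 97.1 at S4 and 2.43 at S5. These genes peaked just before the transition. Ca_07686 and Ca_07687 have adjoining identifiers, and Ca_07687 was instead highest at S1, at 438 FPKM, with 106 at S4 and 0.923 at S5.

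Seen over all members, genes higher at S5 were modestly expressed before and genes lower at S5 were well expressed before. The median of the 1497 higher genes was 3.48, 3.93, 3.86 and 6.34 FPKM at S1, S2, S3 and S4, then 28.9 at S5, 12.75 at S6 and 10.63 at S7. The median of the 1810 lower genes was 13.5, 15.4, 15.6 and 13.1 FPKM at S1 to S4, then 3.17 at S5, 0.853 at S6 and 0.699 at S7. The median of all genes compared stayed between 11.9 and 14.2 FPKM over the seed stages. So the lower genes left an ordinary level for a low one, and the higher genes left a low level for one above the ordinary.

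Most of the higher genes, 1297, had at least 1 FPKM at some stage from S1 to S4. Still, 65.8% of the higher genes reached this level at S1 and 69.9% at S3, beside 90.2% and 92.7% of all genes compared. Under 1 FPKM at each of S1 to S4 were 200 higher genes (13.4%), and 148 of these were also under 1 FPKM in leaf. These 200 entered the comparison through S5 alone, so their higher level at S5 follows from the choice. Their median was 0.238 FPKM at S4, 3.25 at S5, 1.19 at S6 and 1.09 at S7. At both later stages 86 of them (43%) held above S4, beside 39% of the other higher genes. From so low an S4 level a small amount is enough to hold, so this share is not read as a result. In leaf, 67.7% of the higher genes and 67.7% of the lower genes had at least 1 FPKM, as compared to 85.3% of all genes compared. Among the lower genes, 1567 (86.6%) had at least 1 FPKM at every stage from S1 to S4. At S4 every lower gene meets this by the 2-fold limit. At all 3 later stages 413 lower genes (22.8%) were under 1 FPKM. At S1, 88.7% of the lower genes had at least 1 FPKM, beside 90.2% of all genes, and at S6 47.8% beside 79.4%. Shares over several stages together were not computed for all genes, so the counts over several stages are not read as particular to either class.

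The stage of highest expression differed between both classes. Of the higher genes, 859 (57.4%) had their highest value at S5, 289 (19.3%) at S6 and 270 (18%) at S7. Of the lower genes, 388 were highest at S1, 321 at S2, 457 at S3 and 444 at S4, while 109 were highest at S6 and 91 at S7. By definition a higher gene cannot peak at S4 and a lower gene cannot peak at S5. Of all genes compared, 16.9% were highest at S5 and 21% at S7.

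To see whether the changes held, S6 and S7 were each set against S4. These comparisons share the S4 column with the comparison that chose the genes, so the shares over all genes compared are given beside them. Of the 1497 genes higher at S5, 667 (44.6%) were still at least 2-fold above S4 at S6 and 629 (42%) at S7, beside 25.2% and 25.5% of all genes. Of the 1810 genes lower at S5, 1385 (76.5%) were still at least 2-fold below S4 at S6 and 1402 (77.5%) at S7, beside 33.4% and 33.3% of all genes. Decreases were thus held more often than increases in these columns, by counts alone.

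Held at both later stages were 592 of the higher genes (39.5%) and 1353 of the lower genes (74.8%). Over all genes compared, 22.7% were above S4 at both and 30.9% below S4 at both. A higher gene held at S6 alone in 75 cases and at S7 alone in 37. The remaining 793 higher genes (53%) were back within 2-fold of S4, or under it, at both stages. Of the lower genes, 376 (20.8%) held at neither. Without the genes listed at 0 at any of S4 to S7, an alternative added after the values were seen, the shares held were 44.4% of higher and 69.6% of lower genes. With the columns set to the same sum they were 33.4% and 80.2%.

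**Figure D3:**
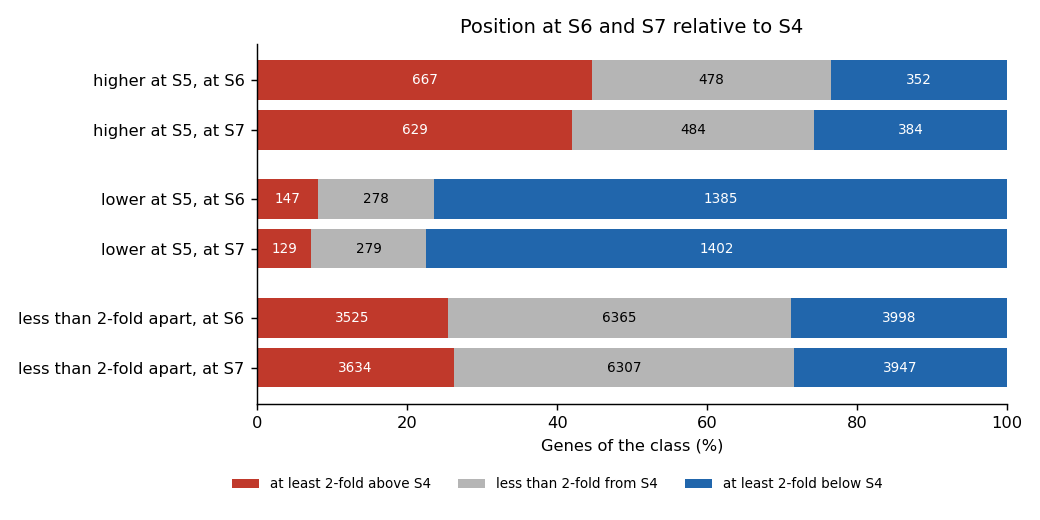
Position of genes relative to S4 at S6 and S7, for genes higher at S5, lower at S5 and less than 2-fold apart. The x axis gives the percentage of each class, and the number in each block counts genes. At S6, 667 of the 1497 higher genes lie at least 2-fold above S4 and 352 at least 2-fold below it, while 1385 of the 1810 lower genes lie below.

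A sizeable group overshot in the other direction. For 325 of the higher genes (21.7%), levels at both S6 and S7 were at least 2-fold below S4. Their median was 37.6 FPKM at S5, 0.426 at S6 and 0.302 at S7. The reverse, a gene lower at S5 and then at least 2-fold above S4 at both stages, was seen for 120 genes (6.63%). Ca_02478, listed by the study among differentiation genes, was of the first kind, with 57.1 FPKM at S4, 601 at S5 and a listed value of 0 at S6 and S7. Its identifier occurs on a second entry, which had 10.5 FPKM at S4, 108 at S5 and also 0 at S6 and S7.

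Large increases held more often than small ones. Held at both S6 and S7 were 355 of 1063 genes (33.4%) that were 2- to 4-fold higher, 155 of 328 (47.3%) that were 4- to 16-fold higher and 82 of 106 (77.4%) that were at least 16-fold higher. A larger distance from S4 leaves more room to remain above it, so part of this order follows from the limit. Of the 106, only 92 were above 0 at both S4 and S5, and a listed 0 at S4 is exceeded by almost any later level. For the lower genes the shares were 72.3%, 84.4% and 76.1%. Of the 46 genes at least 16-fold lower, 27 were above 0 at both stages. Shares by size without the listed zeros were not computed. By level, 28 of the 52 higher genes whose mean reached 1000 FPKM held at both stages, as did all 9 of the lower genes of that level.

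S6 and S7 were also set against S5, whose column these comparisons share. Of the genes higher at S5, 758 (50.6%) were at least 2-fold below S5 at S6, 415 (27.7%) were within 2-fold and 324 (21.6%) were above it. Over all genes these shares were 30%, 47% and 23%. Of the genes lower at S5, 684 (37.8%) were at least 2-fold below S5 at S6, 797 (44%) within 2-fold and 329 (18.2%) above it. At S7, 796 higher genes (53.2%) and 708 lower genes (39.1%) were at least 2-fold below S5, beside 30.2% of all genes.

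Among the genes that held, some kept changing and others stayed near their S5 level. The 592 held increases had a median of 5.78 FPKM at S4, 35.3 at S5, 114 at S6 and 102 at S7. In addition, 286 of all higher genes (19.1%) were a further 2-fold above S5 at both stages. The 793 increases that did not hold had a median of 22.9 FPKM at S5, 1.36 at S6 and 0.999 at S7. For the 1353 held decreases the median went from 12.8 FPKM at S4 to 2.95 at S5, 0.305 at S6 and 0.251 at S7. As held and lost were defined by S6 and S7, the gap between these medians at those stages follows from the definition.

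Named examples show these courses. Ca_13248 was at 6.91 FPKM at S4, 493 at S5, 6.83 at S6 and 2.26 at S7, so that S5 was a single high stage. Ca_16429 was alike, with 1.12 FPKM at S4, 122 at S5, 1.78 at S6 and 0.264 at S7. Ca_28193 was above S4 at S5 and S6 alone, with 0.379 FPKM at S4, 24.3 at S5, 7.31 at S6 and 0.803 at S7. A second entry of this identifier had 1.20 FPKM at S4, 46.7 at S5, 3.09 at S6 and 0.869 at S7, within 2-fold of S4 at S6 on log2(FPKM + 1). Ca_19797 had 8.57 FPKM at S4, 85.7 at S5, 11.6 at S6 and 24.7 at S7, so that it was past 2-fold again at S7 but not at S6. A second, weaker entry of this identifier had 0.738 FPKM at S4, 2.72 at S5, 5.24 at S6 and 12.4 at S7, past 2-fold at both later stages.

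Among the decreases that did not hold, S5 stood out as a single low stage. Ca_08257 was at 23.9 FPKM at S4, 1.46 at S5, 17.04 at S6 and 33.1 at S7. Ca_07338 was at 18.2 FPKM at S4, 1.23 at S5, 18.4 at S6 and 23.3 at S7. Ca_00255 returned in part, with 118 FPKM at S4, 3.804 at S5, 67.9 at S6 and 47.6 at S7. By the 2-fold limit its decrease held at S7 alone. None of these genes was listed at 0 at any of S4 to S7.

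The held shares were also split by the level in leaf. Of 585 lower genes under 1 FPKM in leaf, 521 (89.1%) held at S6 and S7, with a median of 0.0827 FPKM at S6. Of the 1225 lower genes with at least 1 FPKM in leaf, 832 (67.9%) held. Over all genes compared, 57.3% of those under 1 FPKM in leaf and 26.4% of the rest were below S4 at both stages, so the same order was seen without regard to S5. For the higher genes the shares were 168 of 484 (34.7%) held among those under 1 FPKM in leaf and 424 of 1013 (41.9%) among the rest, beside 11.3% and 24.6% of all genes above S4 at both stages. Lower genes with their highest value at S1, S2, S3 and S4 held in 84%, 69.8%, 88.4% and 89.9% of cases. The highest value was taken over S1 to S7, so this split itself uses S6 and S7. A gene highest at S4, for example, cannot be above S4 later. These shares are thus partly fixed by the split, and the same shares over all genes were not computed.

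The share of the summed FPKM held by each class is given as a description, since at S4 and S5 its direction follows from how the classes were chosen. Genes higher at S5 held 9.52% of the summed FPKM at S4, 30.5% at S5, 42.4% at S6 and 44% at S7. At S3 their share was 14.7%. Without genes listed at 0 at S4 these shares were 9.52%, 27%, 42.1% and 43.8%, and 11.6% at S3. Genes lower at S5 held 11.9% at S4, 2.55% at S5, 3.13% at S6 and 2.78% at S7. The 592 held increases made up 2.53% of the sum at S4, 14.3% at S5, 36.7% at S6 and 39% at S7. The 1353 held decreases went from 9.88% at S4 to 2.13% at S5 and 0.23% at S6.

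The most abundant genes of the later stages were looked at after their values were seen. Of the 20 genes with the highest FPKM at S6, 13 were at least 2-fold higher at S5 than at S4, 1 was lower through a listed 0 (Ca_06966) and 6 were less than 2-fold apart. At S7, 15 of the 20 most abundant were higher at S5. For comparison, 8.71% of all genes and 31.7% of those with a mean of 1000 FPKM or more over S4 and S5 were higher. The 13 include Ca_28211 and Ca_05026, which were already abundant at S4. Many were still weak at S4, with 11 of the 20 at S6 and 13 of the 20 at S7 under 100 FPKM at S4.

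Ca_06877 was by far the most abundant gene at S6. It was at 0.389 FPKM at S3, 10.6 at S4, 92.2 at S5, 215672 at S6 and 271919 at S7, so its difference of 3.00 in log2(FPKM + 1) between S4 and S5 was small beside the next step. Ca_18289 was at 9.79 FPKM at S4, 167 at S5, 50924 at S6 and 59236 at S7. Ca_17852 was at 4.94 FPKM at S4, 24.3 at S5, 41521 at S6 and 52177 at S7. The entry joining Ca_13920 and Ca_13921 was farther along at S5, with 30.9 FPKM at S4, 4202 at S5, 32424 at S6 and 46044 at S7. Ca_12999 was at 31.1 FPKM at S4, 857 at S5 and 20870.5 at S6, and was listed at 0 at S7. Without Ca_06877 the share of the sum in higher genes was 36.4% at S6 and 36.8% at S7.

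In the deposited columns the summed gain was 485289 FPKM and the summed loss 146682 FPKM. This excess is the difference between the column sums, and with the sums set equal, an alternative added after the values were seen, gain and loss were 289591 each. The 10 entries that gained most carried 23.4% of the gain and the 100 that gained most 55.2%. For the loss these shares were 13.2% and 40.9%. Among entries above 0 at both stages, the 10 largest carried 20% of the gain. A small number of transcripts thus made up much of the difference.

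**Figure D4:**
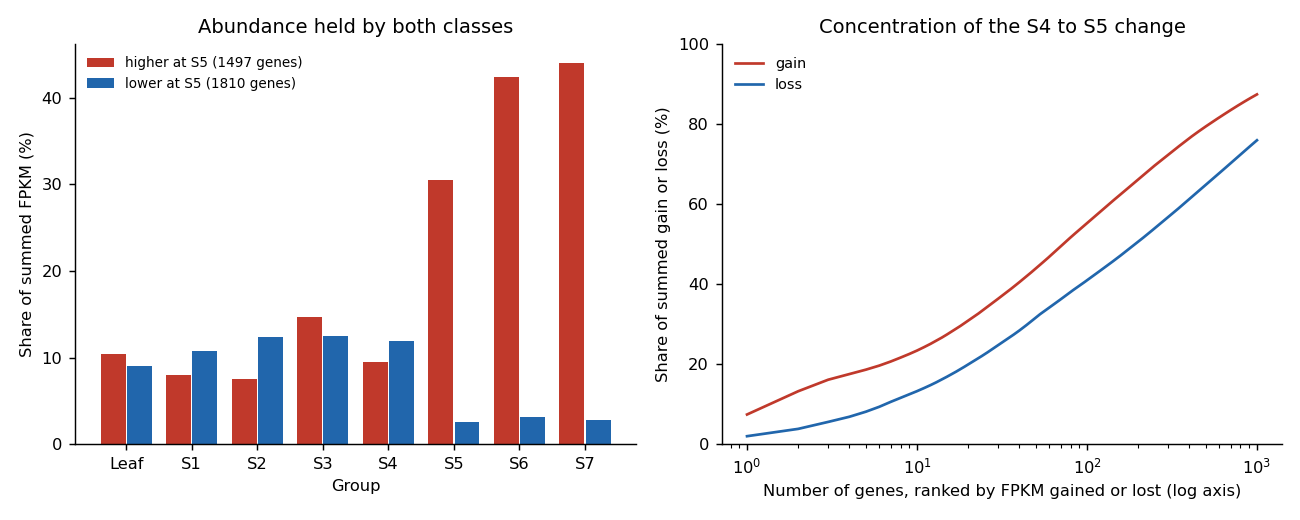
Left, share of the summed FPKM (%) held by genes higher and lower at S5 in leaf and at each seed stage. Right, cumulative share (%) of the summed gain and loss of FPKM from S4 to S5 against the number of genes ranked by it (log axis). The higher genes hold 9.52% at S4 and 30.5% at S5, and the first 100 genes carry 55.2% of the gain and 40.9% of the loss.

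Ca_28211 was the most abundant entry at both stages and gained most. It had 20301 FPKM at S4, 56211 at S5, 47583 at S6 and 17826 at S7, with 51044 at S3 and 10938 in leaf. Its course was uneven before the transition, so its increase from S4 returned it to a level near that of S3. Ca_13501 was second, with 14347 FPKM at S4, 28306 at S5, 34684 at S6 and 49126 at S7. It was just under the 2-fold limit with a difference of 0.98, and was not counted as higher. Ca_05026 had 1924 FPKM at S4, 8841 at S5, 11896 at S6 and 13280 at S7, after 825 to 2081 at S1 to S3.

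Among the largest gains were also entries listed at 0 at S4. Ca_24988 had 4517 FPKM at S2, 11140 at S3, a listed 0 at S4, 28211 at S5, 15.7 at S6 and 6.11 at S7. Ca_00694 had 3543 FPKM at S3, a listed 0 at S4, 5280 at S5 and 54.9 at S6. Ca_03373 had 3841 FPKM at S3, a listed 0 at S4, 3346 at S5 and 23.4 at S6. All 3 were abundant on both sides of S4 and low from S6 on. Their count as higher at S5, and as held at S6 and S7, therefore rests on the listed 0.

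The largest loss above 0 at both stages was that of Ca_02568. It had 5626 FPKM at S4, 2724 at S5, 6.97 at S6 and 2.57 at S7, with losses of similar size in FPKM before and after S5. Ca_15856 had 3054 FPKM at S3, 3166 at S4, 615 at S5 and a listed 0 at S6 and S7. Entries listed at 0 at S5 were among the losses too. Ca_06966 had 1887 FPKM at S4, a listed 0 at S5, 13153 at S6 and 19108 at S7. Ca_06213 had 2 entries, with 1178 and 615 FPKM at S4, a listed 0 at S5, and 1414 and 3844 at S6.

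Next, the study's own gene sets were examined. The study had drawn genes of cell cycle, differentiation, grain filling and desiccation by gene ontology terms, and genes of cell growth and of seed size and weight QTLs for its cultivar comparison. Here the members with a DMR were used, a DMR being a stretch of DNA whose methylation differed between the stages or cultivars compared. As these sets were drawn by methylation in seeds of the same cultivar, they are not independent of the material. Of the grain filling set, 71 members were compared, and 13 (18.3%) were higher and 7 (9.86%) lower at S5, with a median difference of -0.05. Of all genes compared, 8.71% were higher and 10.5% lower, with a median of -0.01. Among these members with a DMR, a group thus stood at higher levels at S5 while their median did not move.

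The higher grain filling members ranged from a difference of 1.05 to 3.86. The entry joining Ca_17248 and Ca_17249 was at 71.4 FPKM at S4, 946 at S5, 123 at S6 and 120 at S7, after less than 1 FPKM at S1 to S3. Another entry, of Ca_17248 alone, was at 288 FPKM at S4, 3186 at S5, 85.5 at S6 and 108 at S7, under its S4 level at both later stages. The entry joining Ca_03834 and Ca_03835 was at 283 FPKM at S4, 3395 at S5, 624 at S6 and 1000 at S7, the highest S5 level among the higher members of this set. Of the 13 higher members, 4 held at both S6 and S7, beside 39.5% of all higher genes. Ca_10512 was one that did not, with 33.5 FPKM at S4, 89.7 at S5 and 3.86 at S6.

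Of the 7 lower grain filling members, 5 held, beside 74.8% of all lower genes. Ca_09586 went from 88.3 FPKM at S4 to 27.3 at S5, 3.26 at S6 and 0.251 at S7, with 356 in leaf. Ca_07751 was counted as lower through a listed 0 at S5, between 13.04 FPKM at S4 and 3058 at S6. Over the set, the median difference of S6 from S4 was -1.03, against -0.16 for all genes. With all listed members, with or without a DMR, 146 were compared. Of these, 24 (16.4%) were higher and 22 (15.1%) lower, with a median of -0.21. Both shares were above the 8.71% and 10.5% of all genes, so in the full list higher and lower members were similar in number.

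The desiccation set had 67 members compared. At S5, 12 (17.9%) were higher and 10 (14.9%) lower, beside 8.71% and 10.5% of all genes. The median difference was 0.01, beside -0.01. With all listed members, with or without a DMR, 135 were compared. Of these, 26 (19.3%) were higher and 27 (20%) lower, with a median of -0.15, and 21 and 12 held. Both directions were thus above their share over all genes, of which 39.5% of the higher and 74.8% of the lower held. Of the 12 higher members with a DMR, 10 held at both S6 and S7, and most of these were higher still at the later stages. Ca_04763 was at 13.5 FPKM at S4, 342 at S5, 6559 at S6 and 7080 at S7. Ca_01091, a member of both the desiccation and the grain filling set, was at 2.36 FPKM at S4, 47.7 at S5, 709 at S6 and 698 at S7. For both, S5 was an intermediate level on the way to that of S6.

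Other desiccation members followed the same course at lower levels. Ca_00791 was at 9.97 FPKM at S4, 56.8 at S5, 160 at S6 and 219 at S7. Ca_07466, also in the grain filling set, was at 5.16 FPKM at S4, 30.2 at S5, 216 at S6 and 133 at S7. Of the 10 lower members, 7 held, and 2 were listed at 0 at S5. These were Ca_17267, with 1473 FPKM at S4 and 0.863 at S6, and the entry joining Ca_15691, Ca_15692 and Ca_15693, with 2683 FPKM at S4 and 11.0 at S6. The joined entry was at 29.2 FPKM at S3 and Ca_17267 at 0.107, so for both S4 was the highest value listed. As a listed 0 may be a failed estimate, their level at S5 is uncertain and S4 cannot be called their single high stage.

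**Figure D5:**
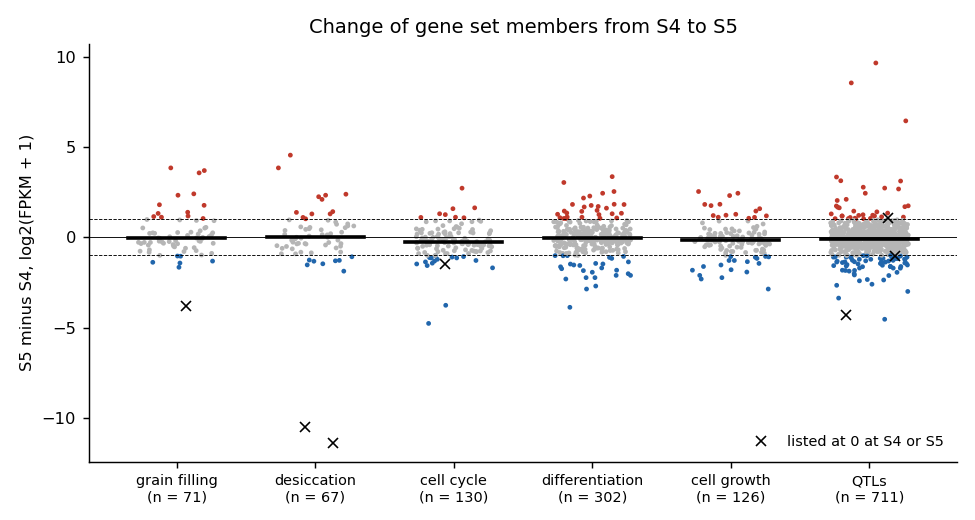
Difference between S5 and S4 in log2(FPKM + 1) (y axis) for members of 6 gene sets (x axis, with the number compared). Points are genes, red for at least 2-fold higher, blue for at least 2-fold lower and grey for less, crosses are members listed at 0 at S4 or S5, and black bars are medians. The medians lie between -0.25 for cell cycle and 0.01 for desiccation.

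In the cell cycle set, 8 of 130 members compared (6.15%) were higher and 17 (13.1%) lower at S5, beside 8.71% and 10.5% of all genes. The median difference was -0.25, beside -0.01. Only 46 of the 130 had a difference above 0. Of the 17 lower members, 16 held at S6 and S7, whereas 3 of the 8 higher members did. Over all genes, these shares were 74.8% and 39.5%. The median level was 12.6 FPKM at S1, 8.78 at S4, 6.75 at S5, 3.75 at S6 and 3.63 at S7. With the columns set to the same sum the median difference was -0.60, beside -0.41 for all genes, so the set remained below all genes under that scaling.

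Ca_14124 had the largest decrease of the cell cycle set. It stood between 46.1 and 60.2 FPKM at S1 to S4, at 1.09 at S5 and 0.0502 at S6. Ca_04102 was at 39.6 FPKM at S3, 22.2 at S4, 0.707 at S5 and 0.958 at S6. Ca_07192 and Ca_19186 had been declining since S1, from 52.3 and 45.7 FPKM to 7.47 and 9.58 at S4 and 1.63 and 2.58 at S5, and both were listed at 0 at S6 and S7. Among the higher members, Ca_07489 was at 7.18 FPKM at S4, 53.3 at S5, 289 at S6 and 256 at S7, after 5.71 to 6.38 at S1 to S3.

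The differentiation, cell growth and QTL sets are given beside the same shares of all genes, 8.71% higher and 10.5% lower. Of 302 differentiation genes, 30 (9.93%) were higher and 27 (8.94%) lower, and 13 and 24 of these held. Of 126 cell growth genes, 15 (11.9%) were higher and 18 (14.3%) lower, and 6 and 17 held. Of 711 QTL genes, 38 (5.34%) were higher and 69 (9.7%) lower, and 16 and 56 held. Over all genes, 39.5% of higher and 74.8% of lower genes held.

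The following members had 1 of the 2 largest changes in their direction within the differentiation or the cell growth set. Ca_00317, a differentiation gene, was at 21.3 FPKM at S4, 183 at S5, 3720 at S6 and 4835 at S7. The entry joining Ca_05706 and Ca_05707, of the cell growth set, was at 6.98 FPKM at S4, 45.6 at S5, 3475 at S6 and 1729 at S7. Ca_02806, in both the differentiation and the cell growth set, was at 133 FPKM at S4, 17.4 at S5 and 0.0401 at S6. Ca_10504 was at 17.4 FPKM at S4, 0.255 at S5 and 0.0148 at S6.

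For 13 genes an annotation was given by the study, and 5 of them were at least 2-fold apart, beside 19.2% of all genes. GH3 enzymes conjugate the hormone auxin to amino acids and so lower its active pool. The GH3 gene Ca_06937 was at 3.601 FPKM at S4, 24.2 at S5, 47.7 at S6 and 49.3 at S7, while the other GH3 gene, Ca_23631, was at 9.82 FPKM at S4, 1.86 at S5 and 1.29 at S6. Within 1 family the members therefore moved in opposite directions, and both changes held. Ca_23631 had been highest at S2, at 69.9 FPKM.

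Auxin response factors are transcription factors that mediate auxin-dependent expression. The gene of this class, Ca_10748, decreased at each step from 118 FPKM at S1 to 39.1 at S4, 15.7 at S5 and 0.509 at S6. The C3HC4-type zinc finger gene Ca_09815 was at 22.6 FPKM at S4, 9.15 at S5 and 0.108 at S6. The homeobox gene Ca_04491 was at 16.6 FPKM at S4, 4.42 at S5, 10.4 at S6 and 11.2 at S7, so that its decrease did not hold. Homeobox proteins are transcription factors with many roles in plant development.

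The other 8 annotated genes stayed within 2-fold on log2(FPKM + 1). By the plain ratio of FPKM, Ca_14780 was 2.375-fold higher at S5 and 1 entry of the F-box gene Ca_01760 was 2.021-fold lower. The type-B response regulator gene Ca_14780, of a class of transcription factors that act in cytokinin signalling, was just under the limit, with 2.58 FPKM at S4, 6.13 at S5 and a difference of 0.99. CDC6 and minichromosome maintenance proteins license origins of DNA replication. The CDC6 gene Ca_15618 was at 9.54 FPKM at S1, 2.21 at S4, 1.72 at S5 and 0.0397 at S6. The minichromosome genes Ca_09549 and Ca_15408 were at 63.9 and 45.4 FPKM at S1, 9.85 and 8.50 at S4, and 6.13 and 4.52 at S5, while Ca_12014 had 3.03 at S4 and 4.74 at S5. For CDC6, Ca_09549 and Ca_15408 most of the decline lay before S4 or after S5.

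Among the 12 genes for DNA methyltransferases and demethylases, 3 were at least 2-fold apart on log2(FPKM + 1), near the 19.2% of all genes. CaCMT2 (Ca_17866) is not among the 3, although it was 2.212-fold lower at S5 by the plain ratio of FPKM. CaCMT3 (Ca_23587), a chromomethylase, which in Arabidopsis methylates CHG sites, was at 41.6 FPKM at S1, 6.33 at S4, 1.64 at S5 and 0.0126 at S6. The demethylase genes Ca_17326 and Ca_17329 were at 1.12 and 1.495 FPKM at S4, and 4.96 and 5.44 at S5, the first holding at S6 and S7 and the second not. With a pseudocount of 5 none of the differences of CaCMT3, Ca_17326 and Ca_17329 reached 2-fold, as their levels are low.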

How the data were processed

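RNA-seq was measured in leaf and 7 seed stages. Per the labels and the study's methods, read quality filtering by the authors used NGS QC Toolkit, TopHat gave the alignments to the kabuli chickpea genome, Cufflinks gave the FPKM values, and Cuffdiff was used for differential expression. The deposited FPKM tables hold 1 column per group, and how the 3 samples were pooled or scaled is not given in the sources used here. Depth is unknown, so no interval for counting error was possible.

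Groups were taken from sample labels. The tables were joined by row, as all list the same 35234 entries in the same order, and 7268 entries carrying only a locus label were set aside. Genes reaching 1 FPKM at S4 or S5 were compared by differences in log2(FPKM + 1), with a limit of 2-fold (Python 3.11.15, pandas 2.3.3, numpy 2.4.6, scipy 1.17.1). A pseudocount of 1 understates changes of weakly expressed genes. limma was not run because columns are pooled. The computation was tested on simulated data. In gene sets, an identifier with several entries was represented by its most abundant one. No identifier matched the RefSeq names of the assembly Cicar.CDCFrontier_v2.0, so names, positions and sequences are not analysed here.

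Named genes were the 12 largest increases and decreases above 0, the 3 largest in each direction with a value of 0, the 5 largest gains and losses, 2 examples of each course, the 2 largest changes in each direction per gene set, 13 annotated and 12 methylation genes, 5 entries at 0 at each stage, the 3 longest runs per direction and the 2 most abundant entries. Ca_03834, Ca_03835, Ca_10512, Ca_00791, Ca_07466, Ca_07192, Ca_19186, the genes most abundant at S6 or S7 and the entries with locus labels were chosen after their values were seen. Genes, lists and rules were all chosen with earlier results of these data known.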

Additional observations from a re-analysis of the deposited data

How the results depend on the processing

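No paired analysis was possible because each group has 1 pooled column, and for the same reason no replicate could be left out in turn and no spread between samples sets how far a value may move. A share counts as moved when it leaves its 95% binomial interval over genes, a count when it moves by over 1.5 times and a set median when it leaves its 95% order interval over members, which measure counting over genes and not replicate error. A total of 3307 genes were apart, and this became 1758 with a pseudocount of 5, 833 with a 4-fold limit and 2124 with a minimum of 10 FPKM. The share of genes apart that were higher, 45.3%, became 42.8% and 51.9% with pseudocounts of 0.1 and 5, 47.8% and 51% with minimums of 5 and 10 FPKM, 52.1% at 4-fold, 20.7% with equal sums, 35.2% with equal upper quartiles, 47% with median ratios, 42.4% without repeated identifiers and 47.7% without genes listed at 0 at S4 to S7. Increases held in 39.5%, and in 47% at 4-fold, 33.4% with equal sums, 33.7% with equal upper quartiles, 44.4% without genes listed at 0 at S4 to S7 and 44% when holding meant not more than 2-fold below S5. Decreases held in 74.8%, and in 77.4% with a pseudocount of 5, 77.7% at 4-fold, 80.2% with equal sums, 78.4% with equal upper quartiles, 69.6% without genes listed at 0 at S4 to S7 and 80.1% when set against S5. Under every alternative run, the share of decreases held was above that of increases. With equal sums, set medians became -0.48 (grain filling), -0.40 (desiccation), -0.60 (cell cycle), -0.41 (differentiation), -0.55 (cell growth) and -0.47 (QTLs), beside -0.41 for all genes, and with equal upper quartiles -0.39 (cell cycle), -0.18 (differentiation), -0.27 (cell growth) and -0.20 (QTLs), beside -0.14 for all genes. With a minimum of 10 FPKM the QTL median was 0.0046. The cause of these shifts was not tested beyond the construction of each setting. The 10 largest gains carried between 20% and 30.1% of the summed gain. Of 113 named values, 12 changed their side of the 2-fold limit with a pseudocount of 5, 9 with equal sums, 4 with equal upper quartiles, 3 with a pseudocount of 0.1 and 2 with median ratios, and none changed direction. The minimum of 10 FPKM, the removal of genes listed at 0 at S4 to S7 and the gain without zeros, repeated or joined entries were chosen after seeing the data. Depth is unknown, so how much of the change in weakly expressed genes lies within counting error could not be computed.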

Other observations

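Entries named by a locus label (XLOC) in place of a gene identifier were left out of the comparison above and were examined by the same limits. Of 2353 such entries compared, 475 (20.2%) were at least 2-fold higher at S5 and 423 (18%) lower, as compared to 8.71% and 10.5% of entries with an identifier. Held at both S6 and S7 were 101 of the higher and 306 of the lower entries. Some were as abundant as the leading genes of the report. XLOC_020865 was under 0.04 FPKM at S1 and S2, 2.24 at S3, 33.9 at S4, 7210 at S5, 5492 at S6 and 6848 at S7. XLOC_010883 was at 72.5 FPKM at S4, 9540 at S5, 3610 at S6 and 978 at S7. In the other direction, XLOC_026111 was at 1331 FPKM at S1, 517 at S4, 5.26 at S5 and 0.531 at S6.

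Identifier numbers mostly followed position, since 1343 of 1661 joined entries (80.9%) joined successive numbers. Runs of at least 3 successive entries all higher at S5 numbered 9 (27 entries), and runs all lower numbered 15 (47 entries), of which 2 held an entry listed at 0. Of all genes compared, 8.71% were higher and 10.5% lower. How many runs those shares alone would give was not computed, so the counts are not read as neighbours changing together. In the run from Ca_09797 to Ca_09801, Ca_09800 was at 98.1 FPKM at S4, 567 at S5 and 0.716 at S6, and Ca_09801 at 243 FPKM at S4, 617 at S5 and 1.64 at S6. The first entry of that run, joining Ca_09797, Ca_09798 and Ca_09799, was at 0.603 FPKM at S4, 2.33 at S5 and 99.1 at S6, so that neighbours higher at S5 parted afterwards. In the run from Ca_06341 to Ca_06344, Ca_06344 was at 153 FPKM at S4, 60.1 at S5 and 12.8 at S6, while Ca_06343 was at 6.70 FPKM at S4, 2.22 at S5 and 10.8 at S6. In the run from Ca_15690 to Ca_15694 all 3 entries were listed at 0 at S5.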
